A study of Solanum lycopersicum with 8 samples.

Results

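The comparison described here sets fruit peel of the tomato mutant Anthocyanin fruit (Aft) against peel of the wild type, across all genes of a tomato expression array. Its members are 4 of the 8 arrays of the study, taken by genotype label: 2 biological replicates of the Aft/Aft mutant (line LA1996), and 2 of wild type cv. Ailsa Craig (LA2838A). The other 4 arrays carried RNA from the double mutant Aft/Aft atv/atv and, as its counterpart without the Aft allele, from the atroviolacea (atv) mutant (LA0797), with 2 replicates each; they enter where the effect of the allele is set beside the same contrast in the atv background. All fruit was green, and the plants had been kept under heated glass over winter, never below 12 °C. By the labels, green peel of the Aft mutant held a little anthocyanin in spots, the double mutant was strongly pigmented, and atv and wild type peel had no significant anthocyanin. The labels do not give the cultivar in which the mutant lines were kept, so that differences due to the Aft allele and differences between line backgrounds cannot be told apart.

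Anthocyanins are made from phenylalanine by way of the phenylpropanoid and flavonoid pathways: chalcone synthase makes the first flavonoid, and dihydroflavonol reductase (DFR) opens the branch that ends in anthocyanins. In many plants the late genes of that branch are switched on by a complex of MYB, bHLH and WD40 proteins. Cultivated tomato fruit makes little or no anthocyanin in its peel, and the Aft trait is known to have been brought into tomato from the wild relative Solanum chilense. Probe sets on the array were designed on known tomato sequences, so that a transcript of another level and a transcript of another sequence under the probes cannot be told apart.

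The 2 replicates of the Aft mutant correlated at r = 0.984 across probe sets and those of the wild type at 0.988, and the Aft mutant arrays correlated with the wild type arrays at a mean r of 0.962 and 0.965. Deposited intensities had medians of 528.9 and 755.4 on the Aft mutant arrays, against 686.7 and 654 on the wild type arrays, so the arrays were quantile-normalized before any comparison. All levels below are log2 of that normalized intensity, and all differences are log2 differences of group means, Aft mutant minus wild type unless another pair is named. Control probe sets at the 3′ end of transcripts exceeded those at the 5′ end by 0.884 and 0.442 on the Aft mutant arrays, against 0.49 and 0.598 on the wild type arrays, as a mean over 10 pairs. To check the labelled tissue, the cuticle and epidermis list held 1 gene with a probe set, the lipid transfer protein gene ltpg1. Its level was 14.18 and 14.07 in the Aft mutant, against 14.02 and 14.07 in the wild type. TSW12, also named as a marker of peel epidermis but kept in the cold and drought list, was lower in the Aft mutant. It was at 8.28 and 8.06 there, against 8.85 and 8.60 in the wild type, a difference of -0.56 (adjusted p = 0.11 in limma). Of genes listed as seed markers, MAN2 was under the filter on low values, and LEA14, a late embryogenesis abundant gene, was at 12.56 and 12.47 in the Aft mutant, against 12.53 and 12.45 in the wild type. The monoterpene synthase gene MTS1, listed for trichomes, was near background on all 4 arrays. With 1 or 2 genes per tissue these checks are thin. The 7 reference genes, ribosomal protein genes among them, differed by -0.04 to 0.12, and none was called, the lowest p being those of RPL37 at 0.12 (adjusted p = 0.66), RPL8 at 0.11 (adjusted p = 0.72) and rpl38 at 0.09 (adjusted p = 0.81).

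Of 9493 probe sets tested with limma, 530 (5.58%) were called at an adjusted p under 0.05, 264 (2.78%) higher and 266 (2.80%) lower in the Aft mutant than in the wild type. Both arrays of a genotype lay on the same side of both arrays of the other for each of the 530, as they did for 50.0% of all probe sets tested, 25.3% with the Aft mutant above and 24.7% with it below. Rises had a median size of 1.28 and falls of 1.42. Changes of 3 or more, an 8-fold difference, made up 32 rises and 28 falls, and changes under 1 made up 93 rises and 87 falls. In 36 of the rises the wild type mean lay under a log2 of 4, near background, and in 18 of the falls the Aft mutant mean did. Such a difference has no firm size, and a fold is then given as at least the value found with all intensities floored at 16. The number of calls was 206 without wild type replicate 1 and 205 without wild type replicate 2, and it was 314 and 326 without Aft mutant replicates 1 and 2, of which 195, 193, 275 and 279 were among the 530. A genotype left with 1 array is then assumed to vary like the others. It was 290 on the deposited values as they stood. Gene symbols were carried by 8.94% of the probe sets tested, so the genes named below are a small and selected part. Among 622 genes with an informative symbol, each read from its brightest probe set, 42 rose and 46 fell (14.1% called, against the 5.58% of all probe sets), and the counts of the gene lists below are set beside both shares.

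**Figure D1:**
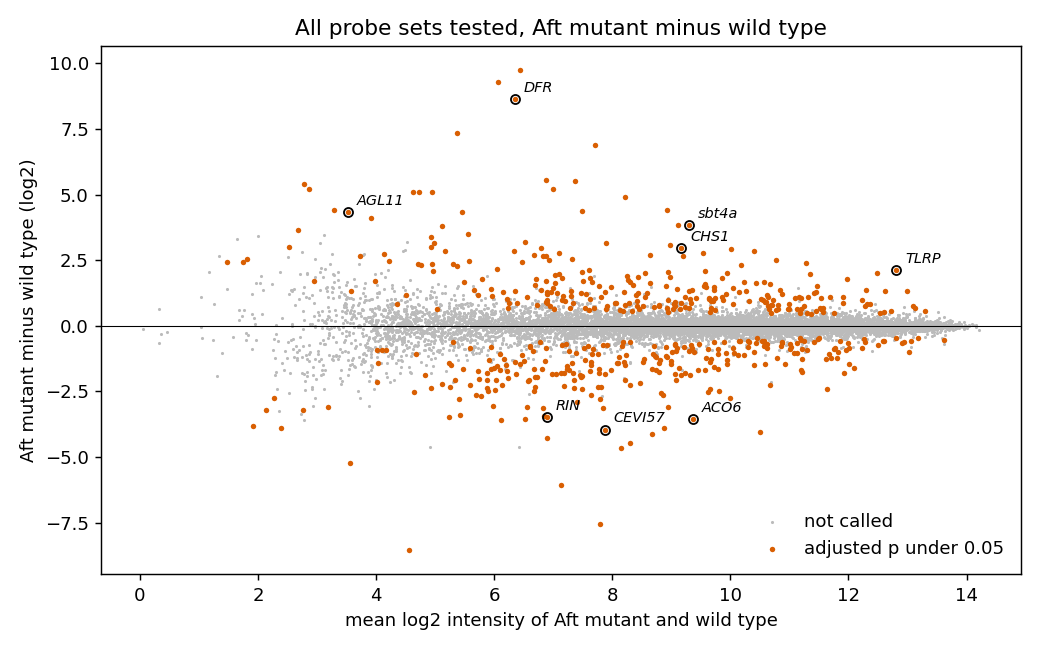
Each point is 1 of the 9493 probe sets tested. The x axis gives its mean log2 intensity over the 4 arrays of Aft mutant and wild type. The y axis gives its log2 difference, Aft mutant minus wild type. The 530 called at an adjusted p under 0.05 are in orange. Circled are DFR, CHS1, AGL11, sbt4a, RIN, ACO6, CEVI57 and TLRP. Among the circled genes DFR lies at 8.65 and CEVI57 at -3.95.

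All 3 genes of the flavonoid and anthocyanin pathway with a tested probe set were called, 2 higher and 1 lower in the Aft mutant. That is 100% of a list of 3 genes, against 14.1% of genes with a symbol and 5.58% of all probe sets. The call for 1 of them, CHS2, was unstable, as given below. DFR (probe set Les.3659.1.S1_at), whose enzyme commits flavonoids to anthocyanin, was at 10.57 and 10.77 in the Aft mutant, against 0.71 and 3.33 in the wild type. Its signal was thus high on both Aft mutant arrays and near background on both wild type arrays. In bulk peel, fewer cells of a type and less RNA per cell cannot be told apart, here and in every result below. DFR rose by 8.65 (SE 0.79, adjusted p = 0.0032), which is at least 102-fold higher. CHS1 (Les.3650.1.S1_at), a chalcone synthase, was at 10.62 and 10.69 in the Aft mutant, against 7.59 and 7.78 in the wild type. It rose by 2.97 (SE 0.10, adjusted p = 0.00031), 7.86-fold, and the lowest Aft mutant array exceeded the highest wild type array by 2.85. CHS2, the second chalcone synthase, was high in both genotypes, at 13.28 and 13.45 in the Aft mutant, against 13.95 and 13.82 in the wild type. It fell by 0.52 (SE 0.10, adjusted p = 0.048), so the probe sets of the chalcone synthases went in opposite directions. The 2 copies are similar in sequence, and their probe sets may detect both, so their values are uncertain as measures of single genes. The call for CHS2 ended when either array of the Aft mutant, wild type, double mutant or atv mutant was left out, with an adjusted p of up to 0.3. CHS2 was also not called on the deposited values (adjusted p = 0.42), whereas DFR and CHS1 were called in all 17 alternative settings.

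In the phenylpropanoid list 1 of 5 tested genes was called (20%, against 14.1% of genes with a symbol and 5.58% of all probe sets). CCR1, a cinnamoyl-CoA reductase of the lignin branch, fell by 0.73 (SE 0.15, adjusted p = 0.049). Supply to the flavonoid branch was not tested. The median over the 5 was -0.73, against 0.00 over all probe sets tested. THT7-1, a hydroxycinnamoyl transferase acting on tyramine, was at 9.59 and 9.58 in the Aft mutant, against 10.60 and 10.14 in the wild type, a difference of -0.78 (adjusted p = 0.12). Neither this gene nor THT1-3, at -1.11 (adjusted p = 0.25), passed the test. The arrays did not overlap for either, as for 50.0% of all probe sets tested. THT1-3 was near background, at 2.86 and 2.69 in the Aft mutant, against 3.69 and 4.06 in the wild type. At a floor of 16 its difference was -0.03 (adjusted p = 0.98). The call for CCR1 ended when Aft mutant replicate 2 or either array of the wild type, double mutant or atv mutant was left out, with an adjusted p of up to 0.26.

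The list of MYB, bHLH and WD40 regulators gave no call in the main setting. Its genes on the array were MYB genes and the bHLH gene MYC2. No WD40 gene was among them, so that family was not tested. The MYB-like gene fsm1 was kept in the growth list and was called, as given below. Of 8 listed genes on the array 6 were tested with limma. Of these 0 were called, and 0 had an unadjusted p under 0.05, against 1645 of all 9493 probe sets. ANT1, the MYB activator of anthocyanin genes in tomato for which a probe set was present, did not pass the filter on low values: its deposited intensities were 3.4 and 6.0 in the Aft mutant, against 4.6 and 0.3 in the wild type. That is background on all 4 arrays. THM1, a further MYB gene, was likewise too dim to be tested, at 6.2 and 12.4 in the Aft mutant, against 8.4 and 3.0 in the wild type. THM27 was at 11.11 and 11.19 in the Aft mutant, against 11.00 and 10.78 in the wild type, a difference of 0.26 (adjusted p = 0.8). MYC2, a bHLH factor of the jasmonate response, was at 12.14 and 12.05 in the Aft mutant, against 12.02 and 12.00 in the wild type. MYC2, at 0.09 (adjusted p = 0.77), THM6, at -0.02 (adjusted p = 0.97), and LeMYBI, at 0.11 (adjusted p = 0.92), differed less than THM27. The gene with the symbol MYB, also listed as THM18, was at 6.50 and 6.51 in the Aft mutant, against 5.34 and 5.64 in the wild type, which did not overlap, yet its difference of 1.02 had an adjusted p of 0.75. That p depended on arrays of another genotype, as the 2 atv arrays, at 4.36 and 0.74, differed widely and enter the shared spread. It was 0.029 without either or both of them, 0.054 with the 4 arrays of Aft mutant and wild type alone, and 0.020 at a floor of 16. THM16 stayed near background, with levels from 0.00 to 3.12 over the 4 arrays.

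**Figure D2:**
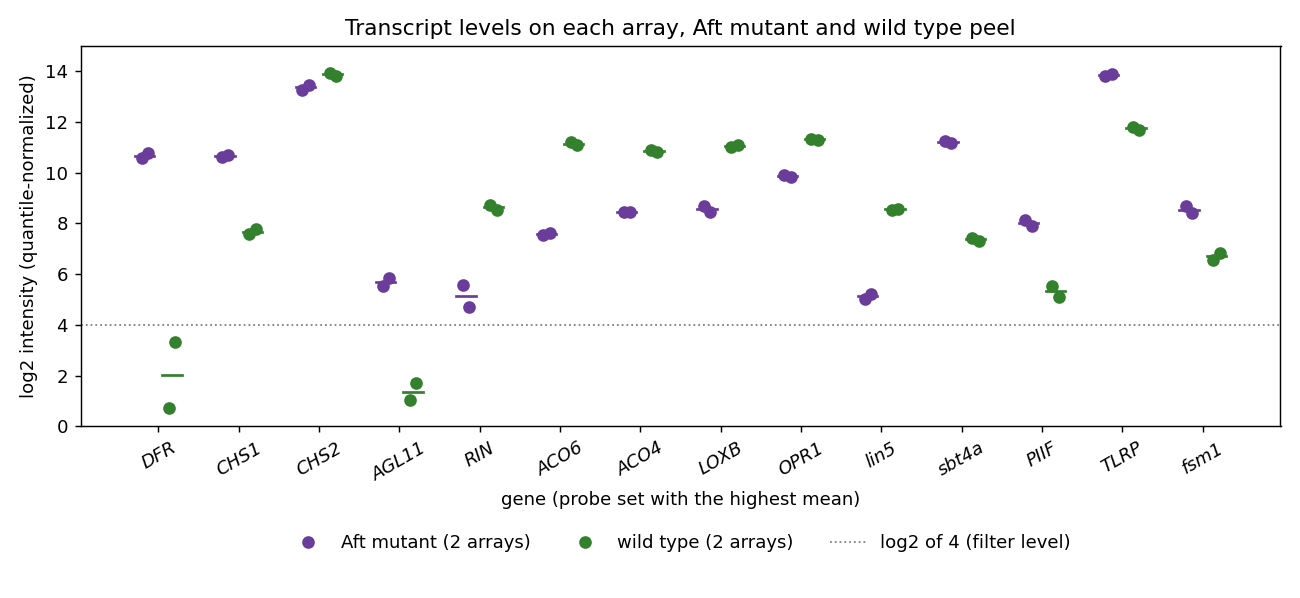
Log2 quantile-normalized intensity (y axis) of 14 genes on each of the 2 Aft mutant arrays (purple, left) and 2 wild type arrays (green, right), with bars for group means; the dotted line marks the filter level of 4. DFR and AGL11 lie under that line on both wild type arrays and above it on both Aft mutant arrays. All 14 were called genes, and the arrays of the genotypes do not overlap for any of them. The same holds for all 530 called probe sets and for 50.0% of all probe sets tested.

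Ripening is governed in tomato by MADS-box and other transcription factors, among them RIN, and by the gas ethylene, which is made by ACC synthases and ACC oxidases. Of 10 ripening regulators tested, 1 rose and 1 fell (20% called, against 14.1% of genes with a symbol), and the median was 0.03. RIN (Les.4450.1.S1_at), a MADS-box factor required for ripening, was at 5.58 and 4.71 in the Aft mutant, against 8.74 and 8.52 in the wild type. Both wild type arrays exceeded both Aft mutant arrays, by at least 2.94, with all fruit at the green stage. RIN fell by 3.49 (SE 0.34, adjusted p = 0.0039), 11.2-fold lower. AGL11, a MADS-box gene of the class known for ovule and seed coat identity, was higher in the mutant, at 5.52 and 5.86 in the Aft mutant, against 1.04 and 1.70 in the wild type. It rose by 4.32 (SE 0.40, adjusted p = 0.0034), at least 3.22-fold higher; with the floor at 16 the difference itself was 1.69. Of the seed-listed genes, LEA14 had the levels given above and MAN2, a mannanase gene, had deposited intensities of 10.2 and 1.5 in the Aft mutant, against 0.4 and 5.4 in the wild type; the part of seed tissue in the AGL11 result was not tested. TDR4, now FUL1, a MADS-box gene of the FRUITFULL class, was at 11.77 and 11.62 in the Aft mutant, against 12.07 and 12.01 in the wild type, a difference of -0.35 (adjusted p = 0.13), and 7 other regulators were not called either.

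Among 12 genes of ethylene synthesis 2 fell and 0 rose (16.7% called, against 14.1% of genes with a symbol), with a median of -0.05. ACO6 (Les.3225.1.A1_at), an ACC oxidase, was at 7.55 and 7.61 in the Aft mutant, against 11.20 and 11.09 in the wild type. It fell by 3.57 (SE 0.13, adjusted p = 0.00031), 11.8-fold lower. Its 2 dimmer probe sets gave falls of 4.27 and 3.09, both called, so that all 3 probe sets agreed. ACO4, another ACC oxidase, was at 8.45 and 8.43 in the Aft mutant, against 10.89 and 10.84 in the wild type, and fell by 2.42 (SE 0.09, adjusted p = 0.00034). The replicates of each genotype differed by under 0.1, far less than the genotypes. A further oxidase gene, ACO5, lay the opposite way at 8.81 and 8.49 in the Aft mutant, against 8.01 and 7.80 in the wild type, with a difference of 0.75 (adjusted p = 0.055); at a floor of 16 it was called (adjusted p = 0.040).

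Further down the ethylene pathway 1 gene of perception and response and 1 ethylene-responsive fruit gene were called. The shares called were 14.1% of genes with a symbol and 5.58% of all probe sets. Of 26 genes of perception and response 1 rose (3.85%, against 14.1% of genes with a symbol): PTI5, an ERF-type transcription factor known from the response to bacteria, was at 8.0 and 7.67 in the Aft mutant, against 6.25 and 6.17 in the wild type, and rose by 1.63 (SE 0.21, adjusted p = 0.011). The receptor gene ETR4 was at 11.20 and 10.90 in the Aft mutant, against 11.54 and 11.62 in the wild type, a difference of -0.53 (adjusted p = 0.092), and ERF3 was at 0.46 (adjusted p = 0.069). Of 11 ethylene-responsive fruit genes 1 rose (9.09%), ER5, at 9.95 and 9.42 in the Aft mutant, against 8.17 and 8.12 in the wild type. ER5 encodes a protein of the late embryogenesis abundant type, and it rose by 1.54 (SE 0.23, adjusted p = 0.017). ER43, at 0.29 (adjusted p = 0.27), and ER1, at -0.22 (adjusted p = 0.38), were not called. The medians of both lists, 0.03 and 0.06, were close to that of all probe sets. The calls for PTI5 and ER5 ended when Aft mutant replicate 1 or either array of the wild type was left out, with an adjusted p of up to 0.12.

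Lipoxygenases add oxygen to membrane fatty acids and so start the synthesis of jasmonate and of leaf and fruit volatiles. Of 13 genes of this group 5 fell and 0 rose (38.5% called, against 14.1% of genes with a symbol and 5.58% of all probe sets), and the median was -0.21. LOXB (Les.331.1.S1_at), a lipoxygenase of fruit, was at 8.69 and 8.44 in the Aft mutant, against 11.00 and 11.09 in the wild type, and fell by 2.48 (SE 0.13, adjusted p = 0.00058), 5.58-fold lower. loxC, the fruit lipoxygenase known for C6 volatiles, was at 6.26 and 5.86 in the Aft mutant, against 8.03 and 7.79 in the wild type, and fell by 1.85 (SE 0.19, adjusted p = 0.0043). LOX1.1, a further lipoxygenase, was at 11.34 and 11.22 in the Aft mutant, against 12.89 and 12.90 in the wild type, and fell by 1.61 (SE 0.19, adjusted p = 0.0075). OPR1, an oxophytodienoate reductase, was at 9.91 and 9.81 in the Aft mutant, against 11.33 and 11.29 in the wild type, and fell by 1.45 (SE 0.09, adjusted p = 0.0012). TomloxE changed least, at 10.33 and 10.21 in the Aft mutant, against 11.01 and 10.93 in the wild type, and fell by 0.70 (SE 0.10, adjusted p = 0.017). In all 5 the 2 arrays of a genotype stayed within 0.5 of each other. The 8 other members ranged from -0.38 to 0.62. The call for LOX1.1 ended when Aft mutant replicate 2 or either array of the wild type was left out, with an adjusted p of up to 0.063. The call for TomloxE ended when either array of the Aft mutant, wild type or double mutant was left out, with an adjusted p of up to 0.14. TomloxE was not called on the deposited values either (adjusted p = 0.2).

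Carotenoid and abscisic acid genes, each read from its brightest probe set, gave 4 falls and 0 rises among 16 (25% called, against 14.1% of genes with a symbol), with a median of -0.23; 1 of the falls is that of Psy1, whose probe sets disagreed. Abscisic acid is made from carotenoids by way of neoxanthin. NSY, listed as neoxanthin synthase and under the synonym Cyc-B as a lycopene cyclase, was at 4.73 and 4.73 in the Aft mutant, against 6.80 and 6.73 in the wild type, and fell by 2.04 (SE 0.18, adjusted p = 0.0029), 4.1-fold lower. NCED1, whose enzyme cleaves carotenoids in the first committed step of abscisic acid synthesis, was at 9.03 and 8.90 in the Aft mutant, against 10.38 and 10.27 in the wild type. It fell by 1.36 (SE 0.22, adjusted p = 0.023). AO1, an aldehyde oxidase of the family that takes part in the last step, was at 11.39 and 11.30 in the Aft mutant, against 12.16 and 12.23 in the wild type, and fell by 0.85 (SE 0.11, adjusted p = 0.0097). Psy1, the phytoene synthase of fruit, was less clear. Its brightest probe set was at 10.45 and 10.63 in the Aft mutant, against 11.19 and 11.23 in the wild type, and fell by 0.67 (SE 0.11, adjusted p = 0.023), whereas a dimmer one (Les.44.1.S1_at) was at 6.89 and 6.74 in the Aft mutant, against 5.99 and 5.93 in the wild type, and rose by 0.85 (SE 0.10, adjusted p = 0.0079). Another lay between at 0.13 (adjusted p = 0.9). The probe sets of Psy1 therefore give no direction for the gene. The call for NCED1 ended when either array of the Aft mutant or the wild type was left out, with an adjusted p of up to 0.14. The call for AO1 ended when Aft mutant replicate 2 or either array of the wild type was left out, with an adjusted p of up to 0.094. The call for Psy1 ended when either array of the Aft mutant, wild type or double mutant was left out, with an adjusted p of up to 0.17. With the deposited values as they stood, the calls ended for NCED1, AO1 and Psy1 at an adjusted p of 0.058 to 0.3.

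Genes of photosynthesis, which mark the green tissue of unripe fruit, gave 1 call. Of 10 tested (10% called, against 14.1% of genes with a symbol), the chlorophyll a/b-binding protein gene CAB5 was at 10.65 and 10.30 in the Aft mutant, against 11.25 and 11.22 in the wild type, and fell by 0.76 (SE 0.15, adjusted p = 0.049). PsbQ, of photosystem II, was at 12.92 and 13.01 in the Aft mutant, against 13.26 and 13.28 in the wild type, a difference of -0.30 (adjusted p = 0.13). CAB4 was at -0.27 (adjusted p = 0.21). The median over the 10 was -0.17, and 9 of 10 differences were below 0, but in size all lay between -0.76 and 0.01. The call for CAB5 ended when either array of the Aft mutant, wild type, double mutant or atv mutant was left out, with an adjusted p of up to 0.26. Its adjusted p was 0.16 on the deposited values.

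Genes of sugar metabolism and transport were called in both directions. Of 22 genes 4 fell and 2 rose (27.3% called, against 14.1% of genes with a symbol), with a median of 0.00. lin5 (Les.3461.1.S1_at), a cell wall invertase that splits sucrose outside the cell, was at 5.02 and 5.22 in the Aft mutant, against 8.54 and 8.56 in the wild type, and fell by 3.43 (SE 0.17, adjusted p = 0.00057), 10.8-fold lower. AI, the acid invertase of the vacuole, was at 12.48 and 12.56 in the Aft mutant, against 13.49 and 13.55 in the wild type. It fell by 1.01 (SE 0.11, adjusted p = 0.006). CIF1, an invertase inhibitor, was at 10.42 and 10.27 in the Aft mutant, against 11.94 and 12.13 in the wild type, and fell by 1.69 (SE 0.13, adjusted p = 0.0022). SUT4, a sucrose transporter, was at 7.59 and 7.47 in the Aft mutant, against 8.68 and 8.75 in the wild type, and fell by 1.18 (SE 0.11, adjusted p = 0.0032). A dimmer probe set of SUT4 was not called, at -0.83 (adjusted p = 0.12). Both called rises were hexose transporters: HT1 was at 11.38 and 11.42 in the Aft mutant, against 10.66 and 10.49 in the wild type, and rose by 0.82 (SE 0.15, adjusted p = 0.041). HT2 was at 9.86 and 9.74 in the Aft mutant, against 8.53 and 8.26 in the wild type, and rose by 1.41 (SE 0.17, adjusted p = 0.0081). The other 16 genes of the list ranged from -0.47 to 0.68. The call for AI ended when either array of the wild type was left out, with an adjusted p of up to 0.062. The call for HT1 ended when either array of the Aft mutant, wild type or double mutant was left out, with an adjusted p of up to 0.24. The call for HT2 ended when Aft mutant replicate 1 or wild type replicate 2 was left out, with an adjusted p of up to 0.064. Without normalization the calls ended for HT1 and HT2 at an adjusted p of 0.076 to 0.36.

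The cell wall list was the largest, and most of its calls were small. Of 42 genes tested 9 rose and 4 fell (31.0% called, against 14.1% of genes with a symbol and 5.58% of all probe sets), with a median of 0.18. TLRP (Les.4489.1.S1_s_at), a tyrosine- and lysine-rich protein of cell walls known from the xylem, was at 13.83 and 13.89 in the Aft mutant, against 11.82 and 11.67 in the wild type, and rose by 2.11 (SE 0.16, adjusted p = 0.002), 4.33-fold. It is also the 1 vascular marker with a tested probe set, and the part of vascular tissue in its rise was not tested. Xyloglucan endotransglucosylases, which cut and rejoin the xyloglucan of the wall, gave 4 rises. tXET-B2 was at 7.81 and 7.19 in the Aft mutant, against 6.44 and 6.13 in the wild type, and rose by 1.21 (SE 0.23, adjusted p = 0.04). XTH6, XTH1 and XTH7 rose by 0.80 (adjusted p = 0.014), 0.58 (adjusted p = 0.048) and 0.56 (adjusted p = 0.036). XTH16 was split: its brightest probe set gave 0.71 (adjusted p = 0.19), and 2 dimmer ones gave 1.20 and 1.43, both called. Expansins, which loosen walls, differed among members. EXP2 was at 8.83 and 8.71 in the Aft mutant, against 8.19 and 8.08 in the wild type, and rose by 0.64 (adjusted p = 0.018). EXP1 rose by 0.65 (adjusted p = 0.034), while EXPA6 was at 7.84 and 7.81 in the Aft mutant, against 9.15 and 9.27 in the wild type, and fell by 1.39 (SE 0.11, adjusted p = 0.0023). A dimmer probe set of EXPA6 was not called, at -2.08 (adjusted p = 0.41).

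Galactosidases and pectin methylesterase, enzymes of wall softening, also went both ways. The beta-galactosidase genes TBG1 and TBG3 rose by 0.55 (adjusted p = 0.04) and 0.50 (adjusted p = 0.034), and TBG4, the member known from ripening fruit, fell by 0.59 (adjusted p = 0.035). PME2.1, a pectin methylesterase, was at 12.01 and 11.95 in the Aft mutant, against 12.63 and 12.55 in the wild type, and fell by 0.61 (SE 0.09, adjusted p = 0.016). TPRP-F1, a proline-rich protein of young fruit, was at 6.46 and 6.09 in the Aft mutant, against 8.08 and 8.10 in the wild type, and fell by 1.81 (SE 0.17, adjusted p = 0.0033). TLRP, EXPA6 and TPRP-F1 were called in all 17 alternative settings; the 10 others were not. The calls for XTH7, EXP1, EXP2, TBG1, TBG3, TBG4 and PME2.1 ended when either array of the Aft mutant, wild type or double mutant was left out, with an adjusted p of up to 0.25. The call for XTH6 ended when either array of the Aft mutant or the wild type was left out, with an adjusted p of up to 0.12. The call for XTH1 ended when either array of the Aft mutant, wild type, double mutant or atv mutant was left out, with an adjusted p of up to 0.27. The call for tXET-B2 ended when Aft mutant replicate 1 or either array of the wild type, double mutant or atv mutant was left out, with an adjusted p of up to 0.22. The deposited values gave no call for XTH6, XTH1, XTH7, tXET-B2, EXP1, EXP2, TBG1, TBG3, TBG4 and PME2.1 at an adjusted p of 0.058 to 0.63.

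**Figure D3:**
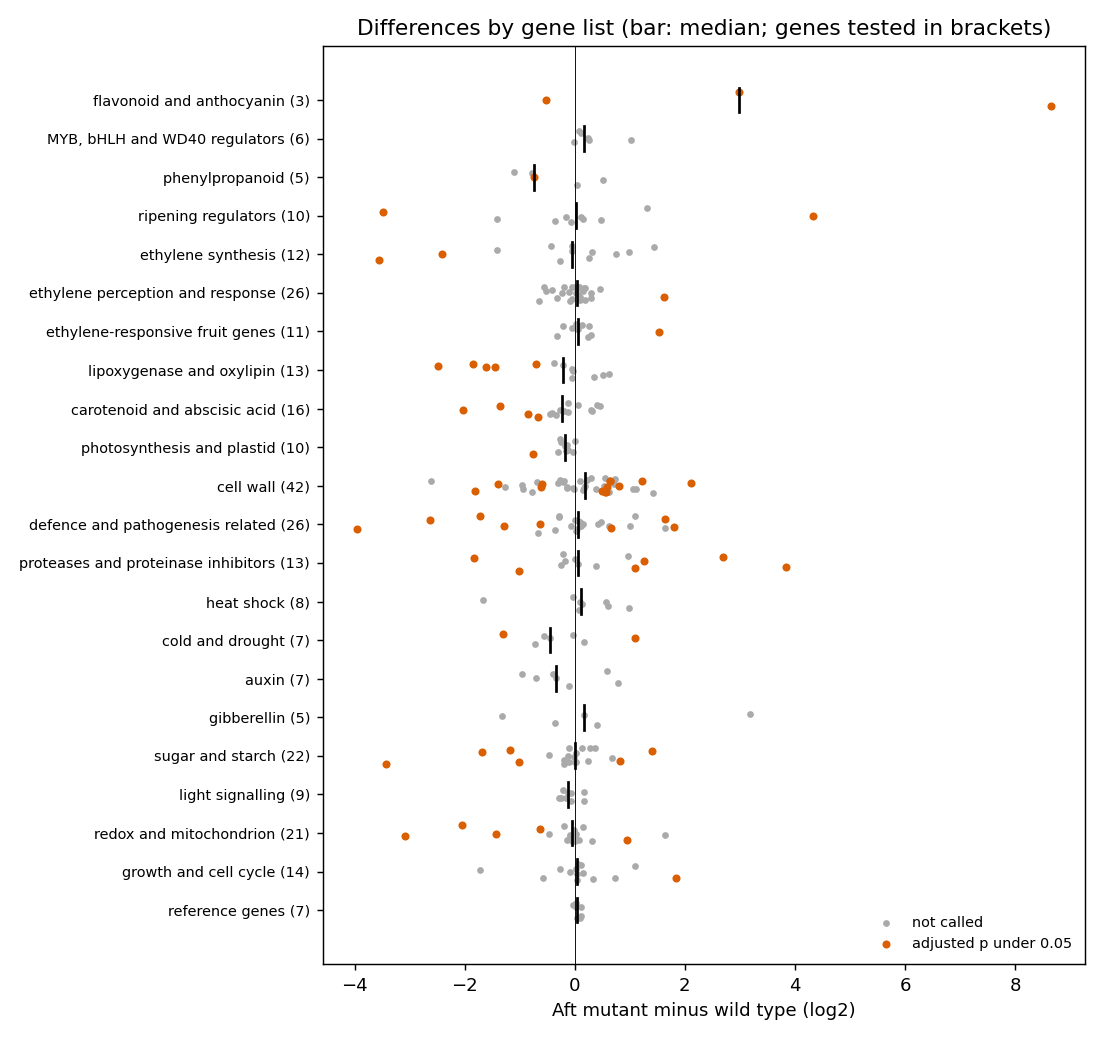
Log2 difference, Aft mutant minus wild type (x axis), of every tested gene in 22 gene lists (rows), 1 point per gene for its brightest probe set, called genes in orange and the list's median as a black bar. The called points of the lipoxygenase and carotenoid lists lie below 0, although a dimmer probe set of Psy1, not drawn, was called higher, while cell wall, defence, protease and sugar genes have called members on both sides.

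Proteases and their inhibitors gave 4 rises and 2 falls among 13 genes (46.2% called, against 14.1% of genes with a symbol), with a median of 0.06. sbt4a (Les.21.1.S1_at), a subtilisin-like serine protease, was at 11.27 and 11.17 in the Aft mutant, against 7.44 and 7.33 in the wild type. It rose by 3.84 (SE 0.24, adjusted p = 0.0011), 14.3-fold. P69A, a subtilisin-like protease known from infected leaves, was at 8.24 and 7.96 in the Aft mutant, against 6.92 and 6.78 in the wild type, and rose by 1.25 (SE 0.15, adjusted p = 0.0079). Another subtilisin-like gene, SBT1, was at 5.87 and 5.05 in the Aft mutant, against 7.31 and 7.28 in the wild type, and fell by 1.83 (SE 0.30, adjusted p = 0.025). PIIF, the wound-induced proteinase inhibitor, was at 8.13 and 7.91 in the Aft mutant, against 5.54 and 5.11 in the wild type, and rose by 2.69 (SE 0.27, adjusted p = 0.0043), 6.47-fold. CYP1, a cysteine protease known as induced by drought, rose by 1.09 (adjusted p = 0.018), and the inhibitor ARPI fell by 1.02 (adjusted p = 0.049). Members of the subtilisin family were thus found on both sides. The call for P69A ended when either array of the wild type was left out, with an adjusted p of up to 0.07. The call for SBT1 ended when Aft mutant replicate 2 or either array of the wild type or the double mutant was left out, with an adjusted p of up to 0.14. The call for CYP1 ended when either array of the Aft mutant or the wild type was left out, with an adjusted p of up to 0.13. The call for ARPI ended when either array of the Aft mutant, wild type, double mutant or atv mutant was left out, with an adjusted p of up to 0.27. Among them the calls ended on the deposited values for P69A and ARPI at an adjusted p of 0.062 to 0.26.

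Defence genes were also mixed, with 3 rises and 5 falls among 26 (30.8% called, against 14.1% of genes with a symbol) and a median of 0.05. CEVI57 (Les.4022.1.S1_at), a gene known as induced by a viroid, was at 5.88 and 5.92 in the Aft mutant, against 9.95 and 9.74 in the wild type. It fell by 3.95 (SE 0.19, adjusted p = 0.00057), 15.5-fold lower. WRKYIId-2, a transcription factor of the WRKY family, was at 6.31 and 6.34 in the Aft mutant, against 8.99 and 8.92 in the wild type, and fell by 2.63 (SE 0.10, adjusted p = 0.00031). cevi19, which the gene table also lists as a fatty acid desaturase, was at 6.63 and 6.91 in the Aft mutant, against 8.59 and 8.38 in the wild type, and fell by 1.72 (SE 0.14, adjusted p = 0.0025). TSI-1 was at 5.14 and 5.39 in the Aft mutant, against 6.79 and 6.31 in the wild type, and fell by 1.28 (adjusted p = 0.016), and RBOH1, an NADPH oxidase that makes reactive oxygen, fell by 0.62 (adjusted p = 0.032). On the other side, PR1b1, a pathogenesis-related protein of the PR1 family, was at 11.31 and 11.19 in the Aft mutant, against 9.70 and 9.52 in the wild type, and rose by 1.64 (SE 0.17, adjusted p = 0.0044), 3.11-fold. Prg1 was at 6.88 and 6.51 in the Aft mutant, against 5.01 and 4.77 in the wild type, and rose by 1.80 (SE 0.17, adjusted p = 0.0037). The kinase gene MPK3 rose by 0.65 (adjusted p = 0.024); of its 3 probe sets 2 were called, and all 3 were higher in the Aft mutant, at 0.65, 0.83 and 0.88. The calls for RBOH1 and MPK3 ended when either array of the Aft mutant, wild type or double mutant was left out, with an adjusted p of up to 0.22. The call for TSI-1 ended when wild type replicate 1 or either array of the Aft mutant was left out, with an adjusted p of up to 0.092. With the deposited values as they stood, the calls ended for TSI-1, RBOH1 and MPK3 at an adjusted p of 0.13 to 0.39.

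Redox genes included 3 metallothionein-like genes, which encode small cysteine-rich proteins that bind metals, all lower in the Aft mutant. MT2 was at 5.41 and 5.72 in the Aft mutant, against 7.70 and 7.55 in the wild type, and fell by 2.06 (SE 0.14, adjusted p = 0.0015), 4.16-fold lower. MTA was at 11.55 and 11.03 in the Aft mutant, against 12.75 and 12.71 in the wild type, and fell by 1.44 (SE 0.25, adjusted p = 0.029). MT3 lay near background in both genotypes, at 1.42 and 1.88 in the Aft mutant, against 4.96 and 4.50 in the wild type. It fell by 3.08 (SE 0.30, adjusted p = 0.004), but with intensities floored at 16 its difference was -0.73 and no longer called (adjusted p = 0.21). ODD, a dioxygenase, was at 10.13 and 10.23 in the Aft mutant, against 9.25 and 9.22 in the wild type, and rose by 0.94 (SE 0.15, adjusted p = 0.022). In all, 1 of 21 redox genes rose and 4 fell, RBOH1 among them (23.8% called, against 14.1% of genes with a symbol), with a median of -0.05. FESOD, an iron superoxide dismutase outside this list, differed between its probe sets, at 0.13 (adjusted p = 0.62) for the brighter and at -0.83 (adjusted p = 0.014) for the dimmer. DHAR1, a dehydroascorbate reductase, was at 11.77 and 11.59 in the Aft mutant, against 12.33 and 12.30 in the wild type, and fell by 0.64 (adjusted p = 0.029). A dimmer probe set of DHAR1 was not called, at -0.59 (adjusted p = 0.11). The call for MTA ended when Aft mutant replicate 2 or either array of the wild type or the atv mutant was left out, with an adjusted p of up to 0.16. The call for ODD ended when either array of the Aft mutant or the wild type was left out, with an adjusted p of up to 0.15. The call for DHAR1 ended when either array of the Aft mutant, wild type or double mutant was left out, with an adjusted p of up to 0.2. Without normalization the calls ended for MTA, ODD and DHAR1 at an adjusted p of 0.052 to 0.24.

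Genes of cold and drought had 1 rise and 1 fall among 7 (28.6% called, against 14.1% of genes with a symbol), with a median of -0.45, in plants kept at a minimum of 12 °C. DREB1, a transcription factor of the response to water loss and cold, was at 7.11 and 7.10 in the Aft mutant, against 5.82 and 6.19 in the wild type, and rose by 1.10 (SE 0.18, adjusted p = 0.027). TAS14, a dehydrin, was at 8.28 and 8.05 in the Aft mutant, against 9.48 and 9.44 in the wild type, and fell by 1.30 (SE 0.12, adjusted p = 0.0038). TSW12, the third by p, was at -0.56 (adjusted p = 0.11). Of 8 heat shock genes 0 were called by limma, against 14.1% of genes with a symbol. An unadjusted p under 0.05 was found for 1 of them, vis1, against 1645 of all 9493 probe sets. HSP21 was at 0.57 (adjusted p = 0.33), vis1 at 0.60 (adjusted p = 0.22) and HSP17.4 at 0.99 (adjusted p = 0.52), and the median was 0.11. The call for DREB1 ended when either array of the Aft mutant, wild type or double mutant was left out, with an adjusted p of up to 0.14. Its adjusted p was 0.15 on the deposited values.

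Growth, hormone and light genes gave few calls. fsm1, a MYB-like gene known from expanding fruit, was at 8.69 and 8.41 in the Aft mutant, against 6.57 and 6.85 in the wild type, and rose by 1.84 (SE 0.14, adjusted p = 0.0021), 3.58-fold, as the only call among 14 growth and cell cycle genes (7.14%, against 14.1% of genes with a symbol). OVATE, a regulator of fruit shape, was at 4.29 and 4.36 in the Aft mutant, against 5.80 and 6.30 in the wild type, a difference of -1.73 (adjusted p = 0.059), and was called in 7 alternatives, among them the fit without either double mutant array (adjusted p = 0.015). CycA2, a cyclin gene, was at 0.72 (adjusted p = 0.17). Of 7 auxin genes 0 were called, against 14.1% of genes with a symbol. An unadjusted p under 0.05 was found for 6 of the 7, against 1645 of all 9493 probe sets. The same shares stand beside the counts of gibberellin and light signalling genes below. The auxin genes nearest to a call were IAA27 at -0.40 (adjusted p = 0.07), IAA3 at -0.97 (adjusted p = 0.098) and IAA7 at 0.58 (adjusted p = 0.12). Of 5 gibberellin genes 0 were called and 2 had such a p; GA20OX1, a gibberellin 20-oxidase, was at 6.09 and 6.15 in the Aft mutant, against 4.33 and 1.55 in the wild type, and with the wild type arrays apart from each other its difference was 3.18 (adjusted p = 0.11). The size of this uncalled difference depended on the wild type array used: it was 4.57 without wild type replicate 1 and 1.79 without wild type replicate 2. At a floor of 16 the difference was 1.95 and was called (adjusted p = 0.00079). 20ox-3, another gibberellin 20-oxidase gene, was at -0.37 (adjusted p = 0.21), and GA3ox1, a gibberellin 3-oxidase gene, at -1.32 (adjusted p = 0.32), or -0.18 at a floor of 16; it was called without Aft mutant replicate 1 (adjusted p = 0.014). Of 9 light signalling genes 0 were called and 1 had such a p, the nearest being HY5, a bZIP factor of light responses that in Arabidopsis acts on flavonoid genes, at 10.46 and 10.52 in the Aft mutant, against 10.74 and 10.81 in the wild type, a difference of -0.29 (adjusted p = 0.26). The photoreceptor gene CRY2, at -0.26 (adjusted p = 0.31), and COP1, at -0.22 (adjusted p = 0.45), differed less. All 9 light signalling differences lay between -0.29 and 0.17.

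Nitrogen and amino acid genes outside these lists, named because they were called, also changed in both directions. ARG2, an arginase, was at 10.56 and 10.49 in the Aft mutant, against 9.35 and 9.27 in the wild type, and rose by 1.22 (SE 0.09, adjusted p = 0.0016). A second probe set of ARG2 gave 1.51, called, and another gave 0.50, not called. gdh1, a glutamate dehydrogenase, was at 10.01 and 9.65 in the Aft mutant, against 8.79 and 8.83 in the wild type, and rose by 1.02 (SE 0.15, adjusted p = 0.018). ProT2, a proline transporter, was at 5.41 and 5.65 in the Aft mutant, against 7.65 and 7.58 in the wild type, and fell by 2.09 (SE 0.14, adjusted p = 0.0014). AAP1, an amino acid permease, was at 6.20 and 6.08 in the Aft mutant, against 7.92 and 8.01 in the wild type, and fell by 1.83 (SE 0.13, adjusted p = 0.0015). ADC, an arginine decarboxylase of polyamine synthesis, fell by 0.58 (adjusted p = 0.027). Both transporters were thus lower in the Aft mutant, 4.26-fold and 3.54-fold, and were called in all 17 alternative settings. The call for gdh1 ended when Aft mutant replicate 1 or either array of the wild type was left out, with an adjusted p of up to 0.12. The call for ADC ended when either array of the Aft mutant, wild type or double mutant was left out, with an adjusted p of up to 0.2. The deposited values gave no call for ADC at an adjusted p of 0.23.

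In inositol metabolism INS-1P, an inositol phosphate synthase, was at 11.21 and 10.97 in the Aft mutant, against 12.26 and 12.35 in the wild type, and fell by 1.22 (SE 0.11, adjusted p = 0.0031). IMP1, an inositol monophosphatase acting in the next step, was at 9.87 and 9.48 in the Aft mutant, against 10.72 and 10.83 in the wild type, and fell by 1.11 (SE 0.18, adjusted p = 0.023). The enzymes act one after the other on the way from glucose phosphate to free inositol. Of ion and organelle genes, NHX1, a sodium/proton antiporter, was at 9.45 and 9.47 in the Aft mutant, against 7.88 and 7.77 in the wild type, and rose by 1.63 (SE 0.27, adjusted p = 0.025). BCCP, the biotin carrier subunit of the carboxylase that makes malonyl-CoA in plastids, was at 11.13 and 10.98 in the Aft mutant, against 9.96 and 10.16 in the wild type, and rose by 0.99 (SE 0.14, adjusted p = 0.016). chMDH, a chloroplast malate dehydrogenase, was at 7.21 and 7.03 in the Aft mutant, against 8.27 and 8.13 in the wild type, and fell by 1.09 (SE 0.14, adjusted p = 0.012). Among regulators, bZIP1, a bZIP transcription factor, was at 13.01 and 12.94 in the Aft mutant, against 11.50 and 11.74 in the wild type, and rose by 1.36 (SE 0.18, adjusted p = 0.012), and the homeobox gene h52 rose by 1.08 (adjusted p = 0.0057). TPSI1, a non-coding RNA known from phosphate starvation, rose by 1.09 (adjusted p = 0.018), and P18, a dUTPase of dividing cells, rose by 0.64 (adjusted p = 0.016). The translation factor gene eIF-5A1 fell by 0.59 (adjusted p = 0.037). The calls for NHX1, BCCP, bZIP1, TPSI1 and P18 ended when either array of the Aft mutant or the wild type was left out, with an adjusted p of up to 0.15. The calls for IMP1 and chMDH ended when Aft mutant replicate 2 or either array of the wild type was left out, with an adjusted p of up to 0.15. The call for h52 ended when either array of the wild type was left out, with an adjusted p of up to 0.058. The call for eIF-5A1 ended when either array of the Aft mutant, wild type or double mutant was left out, with an adjusted p of up to 0.23. Among them the calls ended on the deposited values for chMDH, TPSI1, P18 and eIF-5A1 at an adjusted p of 0.051 to 0.33.

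The remaining called genes with a symbol are given without a role. gts1 fell by 3.49 (adjusted p = 0.0019), BR1 by 1.81 (adjusted p = 0.0023), abz1 by 1.06 (adjusted p = 0.045) and TKR by 2.74 (adjusted p = 0.046). TKR was near background in the Aft mutant, and floored at 16 its difference was -0.22 and not called. gts1 was near background there too, at 3.89 and 3.07, against 7.06 and 6.88 in the wild type. Floored at 16 its difference was -2.97 and still called, at least 7.84-fold lower. SIP was at 11.54 and 11.39 in the Aft mutant, against 9.88 and 9.89 in the wild type, and rose by 1.58 (SE 0.10, adjusted p = 0.0013). TPP3 rose by 2.11 (adjusted p = 0.0023), XOPG1 by 1.43 (adjusted p = 0.01) and adc1 by 1.07 (adjusted p = 0.0025). help1, TGAS118, PGcat and TMT rose by 0.95 (adjusted p = 0.0068), 0.75 (adjusted p = 0.015), 0.69 (adjusted p = 0.044) and 0.52 (adjusted p = 0.036). gtsatom was split, with -0.93 (adjusted p = 0.077) for its brighter probe set and -1.89 (adjusted p = 0.0023) for the dimmer, and the second probe set of gts1 was not called, at -1.41. At a floor of 16 the dimmer probe set of gtsatom gave -1.78 and the second of gts1 -0.70. The calls for XOPG1 and help1 ended when either array of the wild type was left out, with an adjusted p of up to 0.079. The call for abz1 ended when Aft mutant replicate 2 or either array of the wild type, double mutant or atv mutant was left out, with an adjusted p of up to 0.24. The call for TKR ended when wild type replicate 1 or either array of the Aft mutant, double mutant or atv mutant was left out, with an adjusted p of up to 0.18. The call for TGAS118 ended when Aft mutant replicate 2 or either array of the wild type was left out, with an adjusted p of up to 0.13. The call for PGcat ended when either array of the Aft mutant, wild type, double mutant or atv mutant was left out, with an adjusted p of up to 0.26. The call for TMT ended when either array of the Aft mutant, wild type or double mutant was left out, with an adjusted p of up to 0.25. With the deposited values as they stood, the calls ended for abz1, TKR, help1, TGAS118, PGcat and TMT at an adjusted p of 0.055 to 0.63.

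The largest changes of all were in probe sets with no gene name in the annotation. Of the 530 called, 414 had no symbol, in a set of 9493 probe sets tested of which 849 (8.94%) carried one. The largest rise was that of Les.1842.1.S1_at, at 11.36 and 11.28 in the Aft mutant, against 0.85 and 2.28 in the wild type. It rose by 9.75 (SE 0.44, adjusted p = 0.0005), at least 159.8-fold higher. Les.2964.1.A1_at was at 10.85 and 10.56 in the Aft mutant, against 0.29 and 2.54 in the wild type, at least 104-fold higher. These share with DFR a signal near background on both wild type arrays and above 10 on both Aft mutant arrays. The largest fall was that of Les.2063.1.A1_at, at 0.00 and 0.56 in the Aft mutant, against 8.92 and 8.74 in the wild type, at least 28.4-fold lower. Les.2024.1.A1_at was at 4.16 and 3.85 in the Aft mutant, against 11.60 and 11.54 in the wild type, at least 179.7-fold lower. LOC543899 (Les.4452.1.S1_at), chosen after its value was seen as it had the lowest p of all probe sets, was at 9.62 and 9.67 in the Aft mutant, against 4.14 and 4.06 in the wild type, and rose by 5.55 (SE 0.10, adjusted p = 3.9e-05), 46.8-fold; the annotation gives no synonym for it.

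Fruit with and without the Aft allele could also be compared in arrays not used above, as the double mutant against the atv mutant. These contrasts share no array, though all 8 arrays were normalized together and share 1 estimate of the spread. In both, the allele and the line backgrounds cannot be told apart. In the atv background 4178 probe sets were called (44.0%), 2347 (24.7%) higher and 1831 (19.3%) lower in the double mutant. Of the 530 called between Aft mutant and wild type, 311 (58.7%) were called in the same direction, against 27.6% of all probe sets tested. A further 120 (22.6%) were called in the opposite direction, against 16.4% of all. Both calls rest on the shared spread, so these shares do not measure agreement of direction alone. The direction, called or not, was the same for 68.7% of the 530, against 58.9% of all probe sets tested. Among the 144 with a difference of 2 or more, 98 were called in the same direction and 20 in the opposite one. Of 88 named genes 50 were called in the same direction, 26 in the opposite direction and 12 not called. The interaction, which is the double mutant minus atv difference less the Aft mutant minus wild type difference, was called for 2293 of all probe sets (24.2%).

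DFR was at 13.30 and 13.39 in the double mutant, against 7.49 and 7.92 in the atv mutant, a difference of 5.64 (adjusted p = 0.0029), with an interaction of -3.01 (adjusted p = 0.11). The gene was thus higher with the Aft allele in both backgrounds, and the atv mutant lay above the wild type. AGL11 was at 5.55 and 4.91 in the double mutant, against 0.91 and 0.00 in the atv mutant, and sbt4a was at 10.41 and 10.39 in the double mutant, against 5.37 and 6.10 in the atv mutant; both were called higher. ACO6 was at 8.55 and 8.52 in the double mutant, against 12.40 and 12.06 in the atv mutant, and CEVI57 was at 5.07 and 5.61 in the double mutant, against 10.43 and 10.58 in the atv mutant, both called lower. CHS1 was at 13.06 and 13.14 in the double mutant, against 13.35 and 13.41 in the atv mutant, a difference of -0.28 (adjusted p = 0.073). The atv mutant already had a signal above that of the Aft mutant, and the interaction was -3.26 (adjusted p = 0.00023). RIN was at 6.13 and 6.59 in the double mutant, against 3.54 and 3.06 in the atv mutant, a difference of 3.06 (adjusted p = 0.0013). It was therefore called lower in the Aft mutant than in the wild type and higher in the double mutant than in the atv mutant, with an interaction of 6.55 (adjusted p = 0.00075). The inhibitor gene PIIF and the wall enzyme gene tXET-B2 were the mirror image. PIIF was at 7.38 and 7.48 in the double mutant, against 10.53 and 9.80 in the atv mutant, an interaction of -5.42 (adjusted p = 0.00067). tXET-B2 was at 7.51 and 7.58 in the double mutant, against 12.39 and 12.21 in the atv mutant, an interaction of -5.97 (adjusted p = 0.00032).

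**Figure D4:**
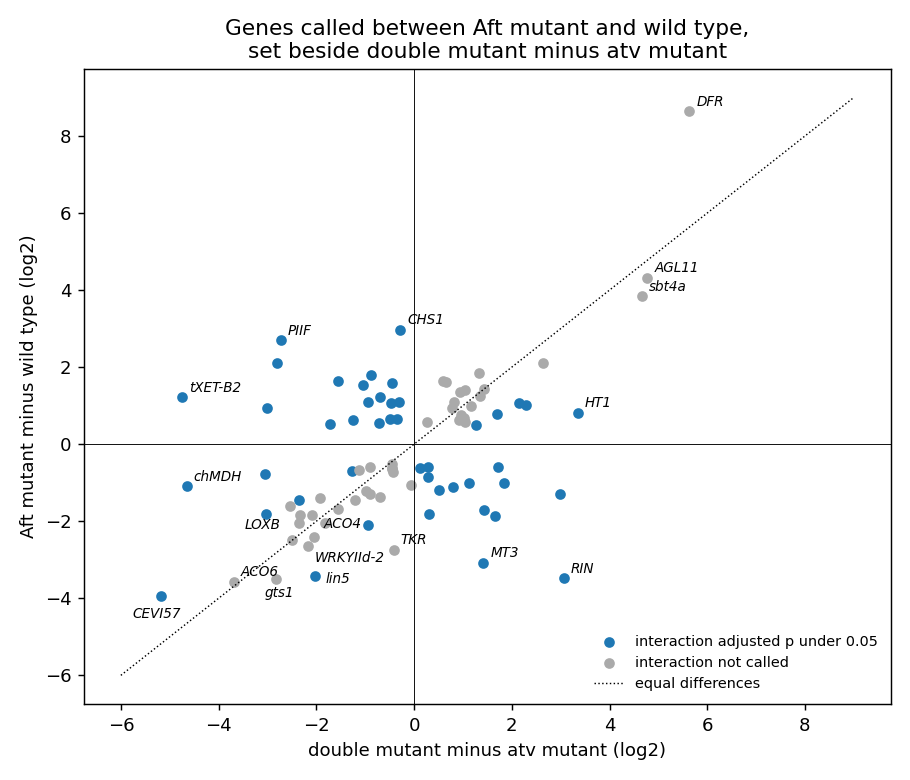
Log2 difference of the double mutant minus the atv mutant (x axis) against that of the Aft mutant minus the wild type (y axis) for the 88 named genes called in the second, with genes whose interaction was called in blue and a dotted line of equal differences. DFR, AGL11, sbt4a and ACO6 lie in the quadrants of equal direction, and RIN, MT3, PIIF and tXET-B2 in those of opposite direction.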

How the data were processed

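RNA of green fruit peel was hybridised to Affymetrix tomato arrays, 1 array per sample, and samples were grouped by their genotype labels. The authors deposited 1 linear intensity per probe set and array; the submitters' processing notes name GCRMA with no version, and their scale is not stated in those notes or the labels. Since array medians differed, the 8 arrays were quantile-normalized here, floored at 1 and put on the log2 scale. Of 10209 probe sets 171 controls were left out, and 545 that did not reach a log2 of 4 in at least 2 arrays, which left 9493. The linear model of limma 3.58.1 (R 4.3.3) had a mean per genotype over all 8 arrays (4 residual and 1.77 prior degrees of freedom), two-sided, with Benjamini-Hochberg adjustment over the 9493 and a threshold of 0.05. It was tested on simulated data. At 2 arrays per genotype, their number limits the precision, and the labels call the replicates biological without saying which plants they came from.

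The annotation paired 909 probe sets with 1 gene symbol each; 885 matched a current gene table. Lists use the probe set with the highest mean per gene. Named are all flavonoid and regulator genes, every called gene with an informative symbol, the 3 members of each other list with the lowest p, and the 2 unnamed probe sets with the largest rise and fall. The comparison, the lists and the tests were chosen with earlier results of these data known, and members of lists were added or removed after their values were seen. A list's count is a description and was not tested. Protein and promoter sequences and chromosome positions were not used here. Replicate numbers were not taken to pair samples. Same-numbered arrays of the Aft mutant and the wild type deviated from their group means with a correlation of -0.00245. The 6 pairs of genotypes ranged from -0.0352 to 0.181. With 2 arrays per genotype such correlations cannot exclude a pairing. Alternatives were other normalizations, floors and filters, a mean-variance trend, a replicate block, and leaving out arrays.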

Additional observations from a re-analysis of the deposited data

Results flagged for a closer look

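For 45 of the 88 named called genes the interaction in limma was called at an adjusted p under 0.05. For these the difference between fruit with and without the Aft allele was not the same beside the wild type and beside the atv mutant. The alleles and the line backgrounds cannot be told apart in this contrast. These genes were chosen by the Aft mutant minus wild type call, whose difference is part of the interaction, so the count is a description and is not set against that of all probe sets. Values below are that interaction on the log2 scale, the double mutant minus atv difference less the Aft mutant minus wild type difference. The causes were not tested.

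Of these, 26 genes were called in opposite directions in the 2 backgrounds, with an adjusted p of 0.00026 to 0.0078 for the interaction in limma. Lower in the Aft mutant and higher in the double mutant were 10 genes. Their interactions were 6.55 for RIN, 4.50 for MT3, 4.27 for TSI-1, 3.52 for loxC and 3.15 for cevi19. They were 2.86 for ARPI, 2.30 for TBG4, 2.12 for AI, 1.89 for IMP1 and 1.69 for SUT4. This set holds the ripening factor RIN, a lipoxygenase, a fatty acid desaturase, an invertase and a sucrose transporter. For MT3, near background in the Aft mutant and the wild type, the fall was lost at a floor of 16 (-0.73, adjusted p = 0.21), and the interaction there was 2.13 (adjusted p = 0.0085). Higher in the Aft mutant and lower in the double mutant were 16 genes. Among wall enzymes and expansins the interaction was -5.97 for tXET-B2, -1.88 for EXP2, -1.27 for TBG1 and -1.15 for EXP1. Among defence, wound and stress genes it was -5.42 for PIIF, -3.19 for PR1b1, -2.68 for Prg1, -2.59 for ER5, -2.04 for DREB1 and -0.99 for MPK3. For the others it was -4.91 for TPP3, -3.96 for ODD, -2.24 for TMT, -2.02 for SIP, -1.92 for ARG2 and -1.54 for adc1.

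In 6 genes the Aft mutant gave a call against the wild type and the double mutant gave none against the atv mutant. The interaction was -3.26 for CHS1, -1.40 for CYP1, 2.13 for TPRP-F1, 1.13 for AO1, 0.89 for eIF-5A1 and 0.74 for RBOH1. CHS1 was at 13.06 and 13.14 in the double mutant, against 13.35 and 13.41 in the atv mutant.

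In 13 genes both calls had the same direction and differed in size. The fall was larger in the atv background for chMDH at -3.57, CAB5 at -2.29, CEVI57 at -1.22, BR1 at -1.21, OPR1 at -0.90 and TomloxE at -0.57. It was smaller there for lin5 at 1.40 and ProT2 at 1.16. The rise was larger in the atv background for HT1 at 2.53, gdh1 at 1.27, h52 at 1.07, XTH6 at 0.89 and TBG3 at 0.77.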

How the results depend on the processing

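No named called difference changed sign in any alternative. Of 40 named genes not called by their brightest probe set, 12 were called in at least 1 alternative, 4 of them at a floor of 16 (MYB, GA20OX1, OVATE and ACO5). Uncalled differences turned sign in 4 of the 40: THM6 ranged from -0.13 to 0.08, THM16 from -1.33 to 1.79, LEA14 from -0.02 to 0.08 and LeMYBI from -0.04 to 0.26. Dimmer probe sets of Psy1 (-0.30 to 0.56) and ERF3 did so too. The number of probe sets called between Aft mutant and wild type was 530, and 290 on the deposited values, 268 of them shared; leaving out single arrays gave 205 to 550. It was 378 with only the 4 arrays of both genotypes in the fit, 489 with arrays scaled to the same median, 633 at a floor of 16, 471 with no filter, 607 with a filter at 6 and 694 with a mean-variance trend. Between double mutant and atv mutant it was 4178, and 2252 on the deposited values; leaving out single arrays gave 2552 to 4223. For the interaction it was 2293, and 872 on the deposited values; leaving out single arrays gave 1157 to 2579. On the deposited values 31% of the calls between double mutant and atv mutant were rises, against 56.2%, and 31.1% of interaction calls were positive, against 51.7%; there the median of all probe sets moved to -0.13, against 0.10, between double mutant and atv mutant. With the replicate block 456, 4111 and 2170 probe sets were called in the 3 contrasts. The labels do not say whether replicate numbers pair the samples. Of 88 named called genes 35 were called in all alternatives that tested them, and 39 lost the call on the deposited values; single arrays left out ended 51 and 50 calls for wild type replicates 1 and 2 and 38 and 42 for Aft mutant replicates 1 and 2. The causes were not tested. Signals near background limit the size of the changes of DFR and AGL11.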
